A study of Rattus norvegicus with 56 samples.

Results

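The microRNAs described here were miR-10a-5p, miR-10b-5p, miR-196a-5p, miR-196b-5p and miR-196c-5p, whose genes lie among the Hox genes. They were chosen by name, and they are 5 of the 682 mature microRNAs listed over all sample types. All 5 were listed in myocardium (661 microRNAs), in amniotic fluid (523) and in maternal serum (518).

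Small RNA was sequenced from Sprague-Dawley rats on embryonic day 19, in 56 samples of 3 types. Dams in the DMO group received dimethadione by gavage in mid-gestation, an agent that causes ventricular septal defect (VSD) in part of the fetuses, and dams of the NC group received distilled water. The VSD group held fetuses with such a defect and no malformation of the great vessels, while the non-VSD group held fetuses of DMO dams whose septum was intact. Myocardium and amniotic fluid had 7 NC, 7 non-VSD and 7 VSD samples, and maternal serum had 7 NC and 7 VSD samples. No genetic change is given for any group. The dam of each sample is not given in the sources used here, so fetuses of 1 litter may stand in 1 group, and p-values measure the spread between these samples.

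Hox genes encode transcription factors that are switched on in order along the body axis and set the identity of each level of the embryo. The clusters also hold microRNA genes, which are transcribed in similar domains, and both miR-10 and miR-196 are known to repress Hox transcripts. A microRNA recognises its targets mainly through its seed, bases 2 to 8 from the 5′ end, so that microRNAs with 1 seed share many predicted targets. MiR-10 genes sit in the anterior to middle parts of the clusters and miR-196 genes in the posterior parts, and miR-196 is therefore best known from trunk, tail and hindlimb rather than from the heart. In the RefSeq gene order of GRCr8, Mir10a lies between Hoxb4 and Hoxb5, and Mir10b lies inside the annotated Hoxd4 gene. Mir196a lies between Hoxc9 and Hoxc10, Mir196b between Hoxa9 and Hoxa10, and Mir196c between Hoxb9 and Hoxb13.

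The mature sequences are shown because the members of each family are almost identical, which bears on how reads were divided among them. They were taken from the RefSeq microRNA table (GRCr8), in which all 5 were found, and are written 5′ to 3′ with the seed in capitals.
miR-10a-5p: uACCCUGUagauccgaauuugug
miR-10b-5p: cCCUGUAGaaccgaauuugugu
Mir10b hairpin stretch: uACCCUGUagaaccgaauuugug
miR-196a-5p: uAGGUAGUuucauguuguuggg
miR-196b-5p: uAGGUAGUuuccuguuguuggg
miR-196c-5p: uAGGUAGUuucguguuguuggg
The 3 miR-196 sequences have 1 seed, AGGUAGU, which no other of the 693 mature rat microRNAs in the table has. They differ at a single base, position 12 counted from the 5′ end, and the substitutions are A12C from miR-196a-5p to miR-196b-5p and A12G from miR-196a-5p to miR-196c-5p. The listed miR-10b-5p starts 2 bases further in than miR-10a-5p, so its seed as listed is CCUGUAG and not ACCCUGU. The Mir10b hairpin does hold those 2 bases, and its 23-base stretch that lines up with miR-10a-5p differs from it by 1 substitution, U12A. How reads that fit more than 1 of these sequences, or that start before the listed end, were counted is not given in the sources used here, so the division of counts within each family is uncertain.

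Total counts per library were between 1694811 and 9371130 in myocardium, between 78188 and 331787 in amniotic fluid and between 147609 and 581350 in maternal serum. Amniotic fluid libraries were made with another kit and sequencer than the others, and the RNA of the myocardium came from wax blocks, so levels in different sample types are set side by side and not tested. Levels are CPM (counts scaled to a fixed library total) after TMM scaling, and since the mature sequences have 22 or 23 bases they need no further scaling by length. In bulk samples, a change in the cells present and a change in the RNA per cell cannot be told apart. A count of 0 allows up to 38.4 CPM in the smallest amniotic fluid library, 20.3 CPM in the smallest serum library and 1.77 CPM in the smallest myocardium library, for counting error only. The myocardium libraries were not alike in their marker microRNAs. The summed level of 5 heart muscle microRNAs (miR-1-3p, miR-133a-3p, miR-208a-3p, miR-208b-3p and miR-499-5p) ran from 4027 to 98677 CPM, and it was lowest in NC replicate 2 (4027 CPM), VSD replicate 1 (5384 CPM) and VSD replicate 4 (7250 CPM). Those 3 libraries had 14234, 15250 and 12120 CPM of 8 epithelial microRNAs, where the median of the NC group was 1366 CPM. The tests, ratios and correlations of the myocardium are therefore also given without them, a choice made after the marker levels had been seen. The 3 libraries also had the most miR-10a-5p of their groups (25469, 32833 and 30924 CPM). Values of miR-10a-5p without them are thus no independent check. VSD replicate 5 was not left out, although it had 11596 CPM of the epithelial microRNAs, with 20099 CPM of the heart muscle microRNAs.

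The 3 sample types differed in which of the 5 microRNAs were counted. Myocardium had counts of miR-10a-5p and miR-10b-5p with almost none of miR-196, amniotic fluid had counts of miR-10a-5p and all 3 miR-196 with almost none of miR-10b-5p as listed, and maternal serum had mainly miR-10a-5p, miR-10b-5p and miR-196b-5p. In all 21 myocardium libraries miR-10a-5p was above miR-10b-5p, which was above each miR-196. The order in amniotic fluid was miR-10a-5p above each miR-196 in 21 of 21 libraries, with miR-196a-5p above miR-196c-5p in 20 of 21. The levels of miR-196a-5p and miR-196b-5p were not ordered there, since miR-196b-5p was the higher in 13 of 21. In maternal serum miR-10b-5p was above miR-10a-5p in 10 of 14 libraries, both were above miR-196b-5p in all 14, and miR-196b-5p was above miR-196a-5p and miR-196c-5p in all 14.

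**Figure D1:**
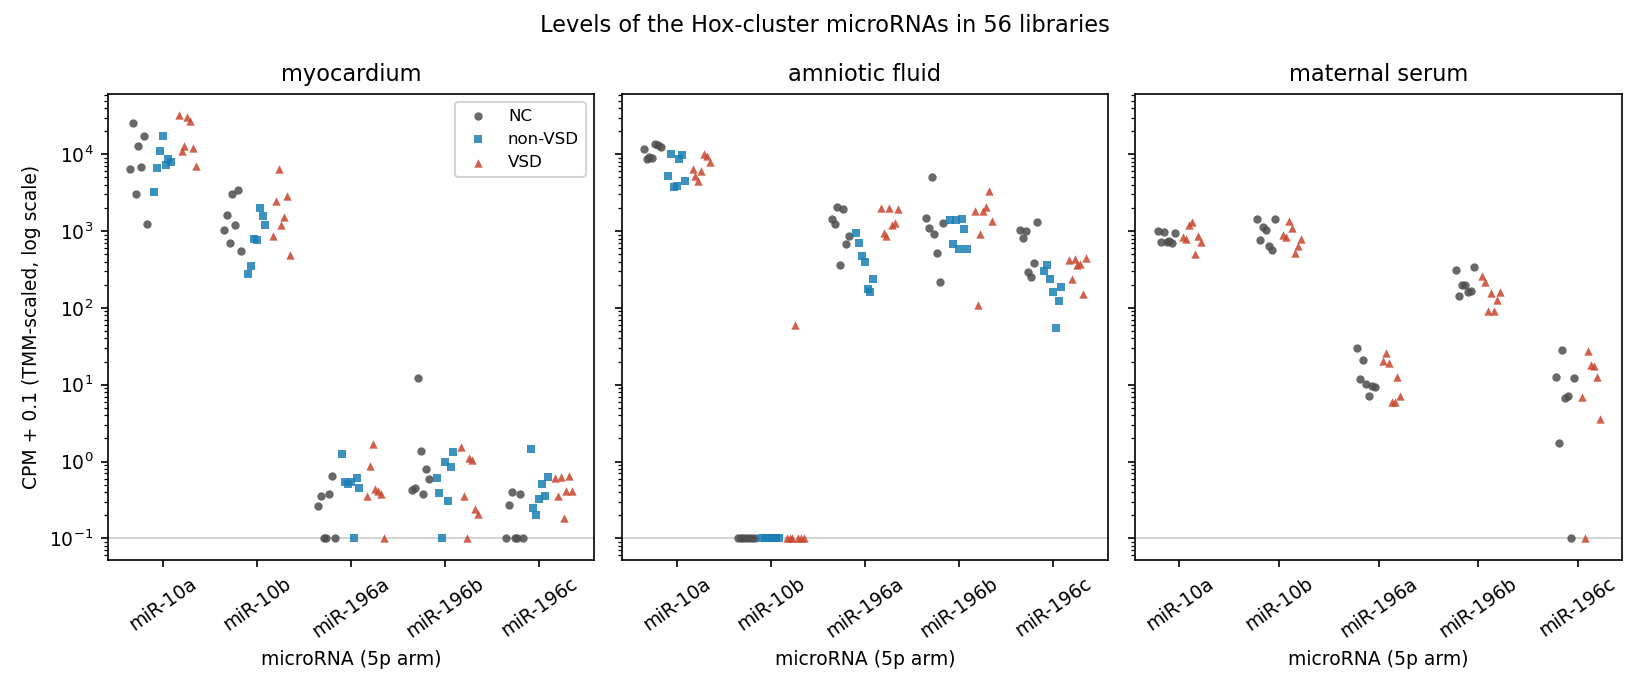
Level of each microRNA (CPM + 0.1, log scale) in each of the 56 libraries, with 1 point per library, colour and shape by group and 1 panel per sample type; the grey line marks a count of 0. The miR-196 points of the myocardium lie at or under 12.3 CPM, and 20 of the 21 amniotic fluid points of miR-10b-5p lie on the grey line.

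MiR-10a-5p was among the more abundant microRNAs of the myocardium, and its level varied widely within each group. In the NC group the lowest, median and highest libraries were at 1254, 6752 and 25469 CPM, a 20.3-fold range. In the non-VSD group they were at 3267, 7910 and 17562 CPM. In the VSD group they were at 6971, 13027 and 32833 CPM. The groups overlapped, although all 7 VSD libraries were above the NC median and 3 were above every NC library. The mean of the 7 NC libraries was 10400 ± 8633 CPM (SD), that of the 7 non-VSD libraries 8883 ± 4475 CPM (SD) and that of the 7 VSD libraries 19185 ± 10765 CPM (SD).

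MiR-10b-5p was the less abundant of the pair in heart tissue. Its lowest, median and highest NC libraries were at 548, 1203 and 3464 CPM. Those of the non-VSD group were at 277, 789 and 2010 CPM. Those of the VSD group were at 494, 1545 and 6470 CPM, the last of them replicate 3, the smallest myocardium library. The ranges of all 3 groups overlapped.

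Changes were tested by edgeR's quasi-likelihood test over all microRNAs that passed its filter on low counts. A DE-microRNA, at the threshold of the study, was changed 2-fold or more in either direction with p under 0.05 before adjustment. Adjusted p-values are by Benjamini-Hochberg over all microRNAs tested. Of the 5 microRNAs, miR-10a-5p and miR-10b-5p passed that filter in the myocardium. Against the NC group, neither met the threshold in the VSD group, where 6.82% of 469 microRNAs did, or in the non-VSD group, where 4.17% of 456 did. Both comparisons use the same NC libraries. Neither had an unadjusted p under 0.05 there, and DESeq2 also called 0 of the 2. The log2 fold change (with its standard error, SE) of miR-10a-5p in the VSD group was 0.87 (SE 0.55 and adjusted p = 0.367), and 0.87 without the 3 libraries above (adjusted p = 0.309). Leaving out NC replicate 2 alone gave 1.26, which met the threshold (adjusted p = 0.0952). That of miR-10b-5p was 0.45 (SE 0.54 and adjusted p = 0.664), 0.75 without the 3 libraries and -0.16 without VSD replicate 3. In the non-VSD group the values were -0.21 for miR-10a-5p (SE 0.53 and adjusted p = 0.917; 0.20 without NC replicate 2) and -0.74 for miR-10b-5p (SE 0.49 and adjusted p = 0.527).

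Between the 2 DMO groups, both were higher in the VSD myocardium at the threshold of the study and neither passed an adjusted p under 0.05. Of 483 microRNAs, 5.18% met that threshold. MiR-10a-5p was higher by 1.11 on the log2 scale (SE 0.51 and adjusted p = 0.426), with 3 of 7 VSD libraries above every non-VSD library. MiR-10b-5p was higher by 1.19 (SE 0.54 and adjusted p = 0.426), with 3 of 7 likewise. Their unadjusted p-values, 0.0397 and 0.0398 by edgeR, lay close to the limit. Without VSD replicate 3 the value of miR-10b-5p was 0.62. Leaving out any 1 of 12 of the 14 libraries ended the call for at least 1 of them, the exceptions being VSD replicates 2 and 7, and limma called neither. Without the 3 libraries the log2 fold change was 0.64 for miR-10a-5p and 1.47 for miR-10b-5p, and of the pair the latter alone met the threshold.

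**Figure D2:**
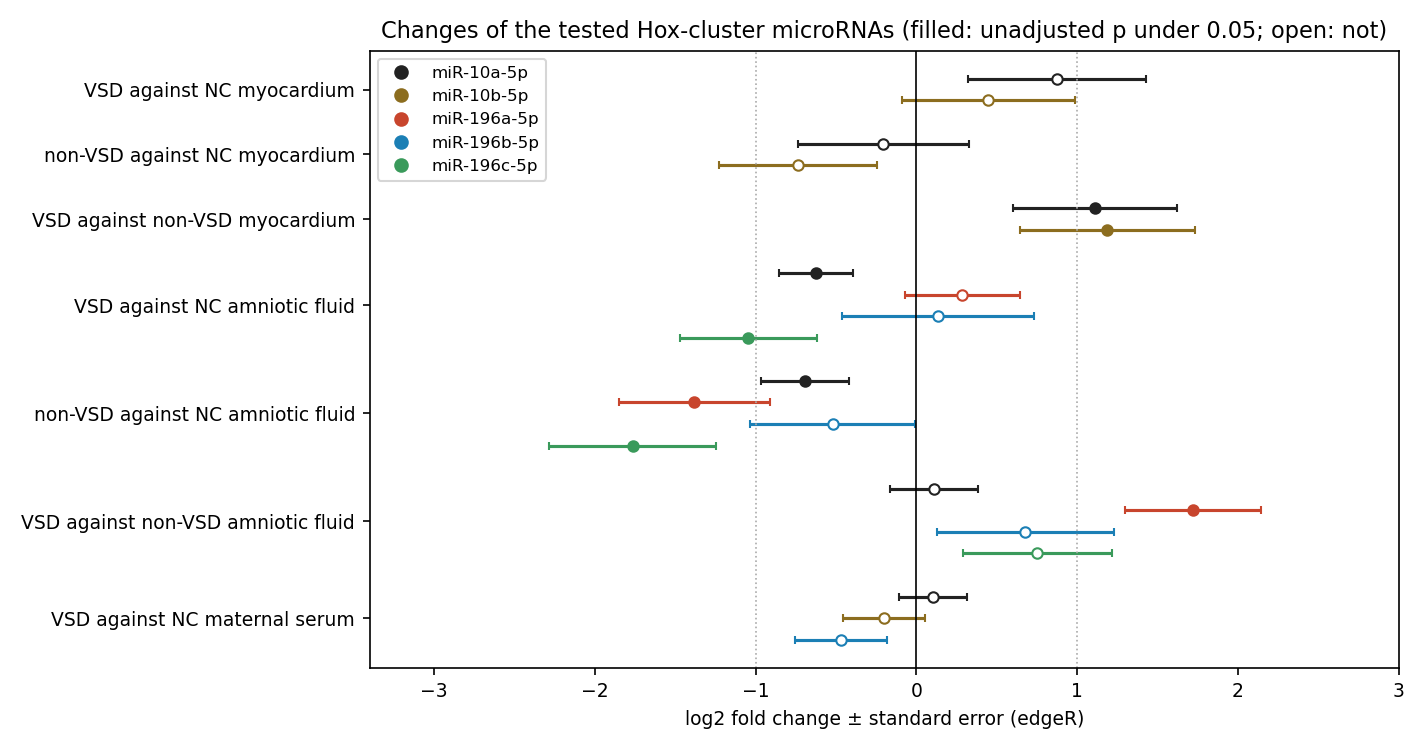
Log2 fold change with its standard error (x axis) for each microRNA that passed the filter on low counts in each comparison (y axis), with n = 7 per group. Filled points had an unadjusted p under 0.05, and dotted lines mark a 2-fold change; no point passed an adjusted p under 0.05.

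The level of miR-10a-5p in the myocardium moved with the summed level of 8 epithelial microRNAs. The list of 8 held the 5 microRNAs of the miR-200 family with miR-203a-3p, miR-205 and miR-375-3p, which are known from epithelial cells. Over 21 libraries, after each group's mean had been taken off, the Spearman correlation of log2 levels was 0.94 with the summed epithelial list and -0.84 with the heart muscle list. For miR-10b-5p the same values were 0.30 and -0.28. Over the 18 libraries left without the 3 named above, they were 0.78 and -0.83 for miR-10a-5p and 0.37 and -0.55 for miR-10b-5p. A separate list of kidney and gut epithelium, with 3 of its 4 microRNAs listed, did not move with miR-10a-5p in that direction (-0.27, and -0.12 over the 18 libraries), and its median sums were 521 CPM in NC, 412 CPM in non-VSD and 391 CPM in VSD libraries. The epithelial list summed to 251 to 14234 CPM in the NC group (median 1366), to 322 to 6580 CPM in non-VSD (median 1697) and to 1984 to 15250 CPM in VSD libraries (median 3265), and all 8 of its microRNAs had counts. Red blood cell microRNAs also differed, with median sums of 33788 CPM in the NC, 7003 CPM in the non-VSD and 7522 CPM in the VSD libraries, and their within-group correlation with miR-10a-5p was -0.32. These libraries share their totals with both measures, and the part of epithelial, heart muscle or blood RNA in the differences of miR-10a-5p was not tested.

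The microRNAs most like miR-10a-5p were, among 474 compared, its own other arm miR-10a-3p (rho 0.97), miR-200b-3p (0.95), which is on the epithelial list, and miR-200a-5p (0.94). Those most like miR-10b-5p were its other arm miR-10b-3p (0.80), miR-433-5p (0.79) and miR-380-5p (0.76). The latter 2 belong to the large imprinted microRNA cluster Dlk1-Dio3. Over 18 libraries those of miR-10a-5p were 0.95, 0.83 and 0.83, and those of miR-10b-5p 0.88, 0.75 and 0.73, in the same order. Between miR-10a-5p and miR-10b-5p the correlation in the heart was 0.39 (0.56 over 18 libraries), and in all 21 libraries together 145 microRNAs stood nearer to miR-10a-5p than miR-10b-5p did. In maternal serum, by contrast, miR-10b-5p was the nearest of 227 microRNAs to miR-10a-5p (rho 0.80, 14 libraries). These correlations describe the libraries and carry no test.

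**Figure D3:**
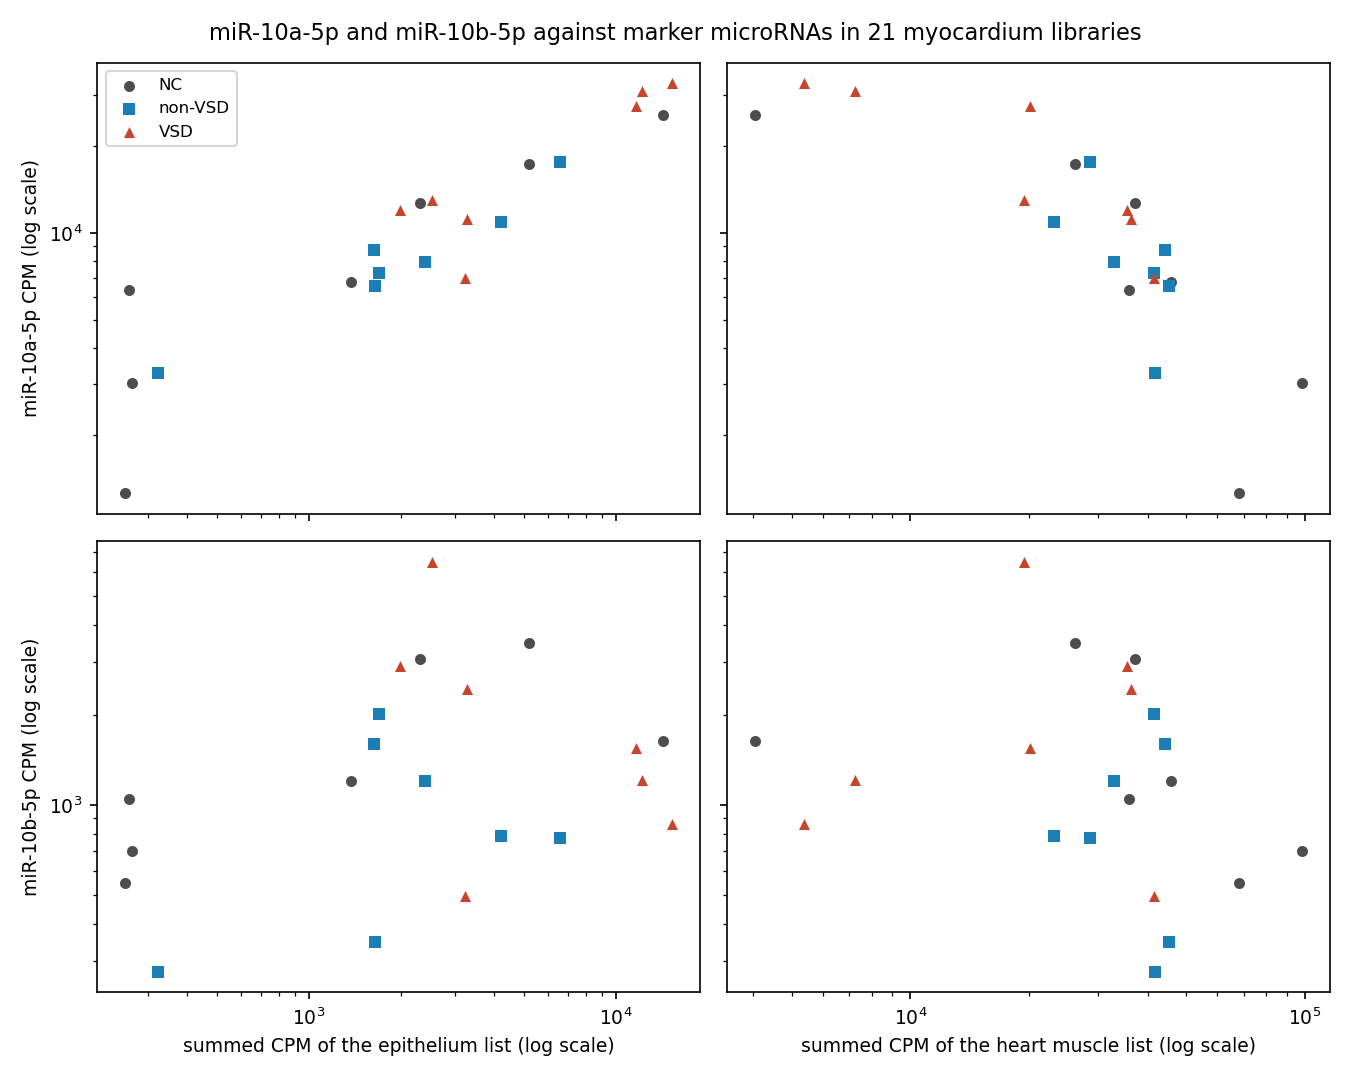
Level of miR-10a-5p (top) and miR-10b-5p (bottom) against the summed level of the epithelial list (left) and the heart muscle list (right) in each of 21 myocardium libraries, in CPM on log scales, colour and shape by group. MiR-10a-5p climbs with the epithelial list (Spearman correlation 0.94 after group means were taken off), while the value for miR-10b-5p is 0.30.

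The share of miR-10b-5p within the pair was also compared, since a ratio within a library does not depend on scaling. In the myocardium, the ratio of miR-10b-5p to miR-10a-5p had a median of 0.200 over NC, 0.0847 over non-VSD and 0.0709 over VSD libraries. The ranges were wide, 0.0640 to 0.437 in the NC group and 0.0262 to 0.497 in the VSD group, so they overlapped. The mean log2 ratio of the VSD group less that of the NC group was a difference of -0.92 (exact permutation test, two-sided, p = 0.203). For the non-VSD group the difference was -0.91 (exact permutation test, p = 0.0921), and between the DMO groups it was -0.0038 (exact permutation test, p = 0.994). In maternal serum the median ratio was 1.17 in the NC group and 1.05 in the VSD group, a difference of mean log2 ratios of -0.23 (exact permutation test, p = 0.157). Without the 3 libraries the difference of VSD against NC myocardium was -0.52 (exact permutation test, p = 0.418). Each other myocardium comparison lost only those of the 3 that lay in its groups. Without NC replicate 2, non-VSD against NC gave -1.18 (exact permutation test, p = 0.0297). Without VSD replicates 1 and 4, VSD against non-VSD gave 0.66 (exact permutation test, p = 0.319). After adjustment over the 4 tests with all libraries the lowest p was 0.270 (exact permutation tests), and 3432 groupings allow p-values as low as 0.000583.

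MiR-196 had few counts in the myocardium libraries. Over all 21 of them, with 2184410 counts of miR-10a-5p, there were 50 counts of miR-196a-5p, 122 of miR-196b-5p and 42 of miR-196c-5p. Of the 60 counts of miR-196b-5p in the NC group, 41 lay in NC replicate 3, which was at 12.3 CPM where the next NC library was at 1.25 CPM. All other miR-196 values in the myocardium were at or under 1.59 CPM. None of the 3 passed the filter, and no change can be read from so few counts. Without the filter, miR-196c-5p met the threshold of the study in both DMO groups, with a lowest adjusted p of 0.299 by edgeR. Its counts were 20 in the VSD, 17 in the non-VSD and 5 in the NC group. Both comparisons use those 5 NC counts. The share of all microRNAs that met the threshold without the filter was not computed.

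In amniotic fluid, which holds RNA shed by the skin, airways, kidneys and membranes of the fetus, all 3 miR-196 microRNAs and miR-10a-5p were counted in every library. MiR-10a-5p was lower in both DMO groups than in the NC group. Its lowest, median and highest libraries were at 8620, 11721 and 13594 CPM in the NC group. In the non-VSD group they were at 3724, 5188 and 10065 CPM, and in the VSD group at 4532, 6364 and 9962 CPM. Every library of either DMO group was below the NC median, and 5 of 7 VSD and 4 of 7 non-VSD libraries were below every NC library.

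The log2 fold change of miR-10a-5p was -0.62 in the VSD group (SE 0.23 and adjusted p = 0.231) and -0.69 in the non-VSD group (SE 0.27 and adjusted p = 0.138), both by edgeR. Both had an unadjusted p under 0.05, as did 13.5% and 19.4% of all microRNAs tested in these comparisons, and both were smaller than a 2-fold change. Without non-VSD replicate 4 the value of that group was -0.54 and its unadjusted p no longer under 0.05, and without non-VSD replicate 6 it was -0.86 (adjusted p = 0.0489, edgeR). The NC libraries are the same in both comparisons. Between the 2 DMO groups the value was 0.11 (SE 0.27 and adjusted p = 0.910). Exact permutation tests of mean log2 CPM gave two-sided p-values of 0.00699 for the VSD group and 0.0134 for the non-VSD group. Adjusted over all microRNAs tested, these permutation p-values were 0.190 and 0.147.

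The estimated change of miR-10a-5p in the VSD group was upward in the fetal heart and downward in the fluid. By edgeR the p in the heart was 0.133 before adjustment. In mean log2 CPM the change was 1.22 in the myocardium and -0.67 in amniotic fluid, a difference of 1.89 (permutation test of the difference, two-sided, p = 0.00696). Adjusted over the 236 microRNAs tested in both sample types, p was 0.0864 (permutation test), and 14 other microRNAs passed there. Without the 3 myocardium libraries the difference was 1.82 (permutation test, adjusted p = 0.0754). None of the 6 such differences that could be formed for the 5 microRNAs passed an adjusted p under 0.05. Between amniotic fluid and maternal serum the difference for miR-10a-5p was -0.73 (permutation test, p = 0.0222, adjusted p = 0.320). All of these tests permuted groups within each sample type and took the sample types as independent. Heart, fluid and serum samples may come from the same dams, which was not accounted for.

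MiR-196a-5p was higher in the VSD than in the non-VSD amniotic fluid at the threshold of the study, with some overlap. Its lowest, median and highest NC libraries were at 361, 1240 and 2051 CPM. Those of the non-VSD group were at 163, 395 and 941 CPM, and those of the VSD group at 857, 1278 and 2003 CPM. All 7 non-VSD libraries were below the NC median and 3 were below every NC library, while the VSD libraries lay within the NC range, and 6 of 7 VSD libraries were above every non-VSD library. The mean of the 7 NC libraries was 1226 ± 631 CPM (SD), against 441 ± 290 CPM (SD) over 7 non-VSD libraries and 1464 ± 511 CPM (SD) over 7 VSD libraries.

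MiR-196a-5p was a DE-microRNA in the non-VSD group, at -1.38 on the log2 scale (SE 0.47 and adjusted p = 0.0944 by edgeR), in a comparison where 12.4% of 242 microRNAs met that threshold and 4.96% passed an adjusted p under 0.05. In the VSD group it was at 0.29 (SE 0.36 and adjusted p = 0.749). The difference between the DMO groups was 1.72 (SE 0.42), a 3.29-fold higher level in the VSD group, and had the second lowest p of 273 microRNAs, of which 3.3% met the threshold and 10.6% had an unadjusted p under 0.05. Its adjusted p of 0.0573 ran from 0.00754 (DESeq2) to 0.156 (only the samples of the DMO groups in the fit) over 8 alternatives, and was under 0.05 in 2 of them. An exact permutation test gave p = 0.00117 (adjusted p = 0.0636). Without any 1 library the log2 difference stayed between 1.58 and 2.02.

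MiR-196c-5p was lower than in the NC group in both DMO groups. The lowest, median and highest NC libraries were at 255, 819 and 1328 CPM. In the non-VSD group they were at 55.5, 187 and 366 CPM, and in the VSD group at 153, 376 and 443 CPM. All 14 libraries of the DMO groups were below the NC median. Below every NC library were 5 of 7 non-VSD and 2 of 7 VSD libraries. NC replicates 4, 5 and 6 were at 296, 255 and 384 CPM, within the range of the VSD group. The same NC libraries serve both comparisons. Its counts were small, 623 over the NC, 275 over the non-VSD and 387 over the VSD libraries.

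The log2 fold change of miR-196c-5p in the non-VSD group was -1.76 (SE 0.52), the largest of any of the 5 microRNAs in the 7 comparisons. Its adjusted p was 0.0540 by edgeR and ran from 0.0139 (DESeq2) to 0.133 (exact permutation test) over 7 alternatives, under 0.05 in 3 of them. In the VSD group it was -1.05 (SE 0.42 and adjusted p = 0.251 by edgeR). It met the threshold of the study, as did 6.94% of 245 microRNAs, but not by DESeq2, by limma or without any 1 of NC replicates 1, 3 and 7 and VSD replicates 2 and 6. Between the DMO groups it was 0.75 (SE 0.46 and adjusted p = 0.711), so that the depth of the fall was not shown to differ.

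MiR-196b-5p did not meet the threshold in the 4 comparisons of amniotic fluid and serum, and in the myocardium it did not pass the filter. Its lowest, median and highest libraries were at 218, 1088 and 5062 CPM in the NC group, at 582, 1074 and 1425 CPM in non-VSD and at 108, 1842 and 3284 CPM in VSD libraries. These ranges overlapped. Its log2 fold change was 0.13 in the VSD group (SE 0.60 and adjusted p = 0.910 by edgeR) and -0.52 in the non-VSD group (SE 0.51 and adjusted p = 0.637), which became 0.24 without NC replicate 3, the library at 5062 CPM. Between the DMO groups it was 0.68 (SE 0.55 and adjusted p = 0.835).

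**Figure D4:**
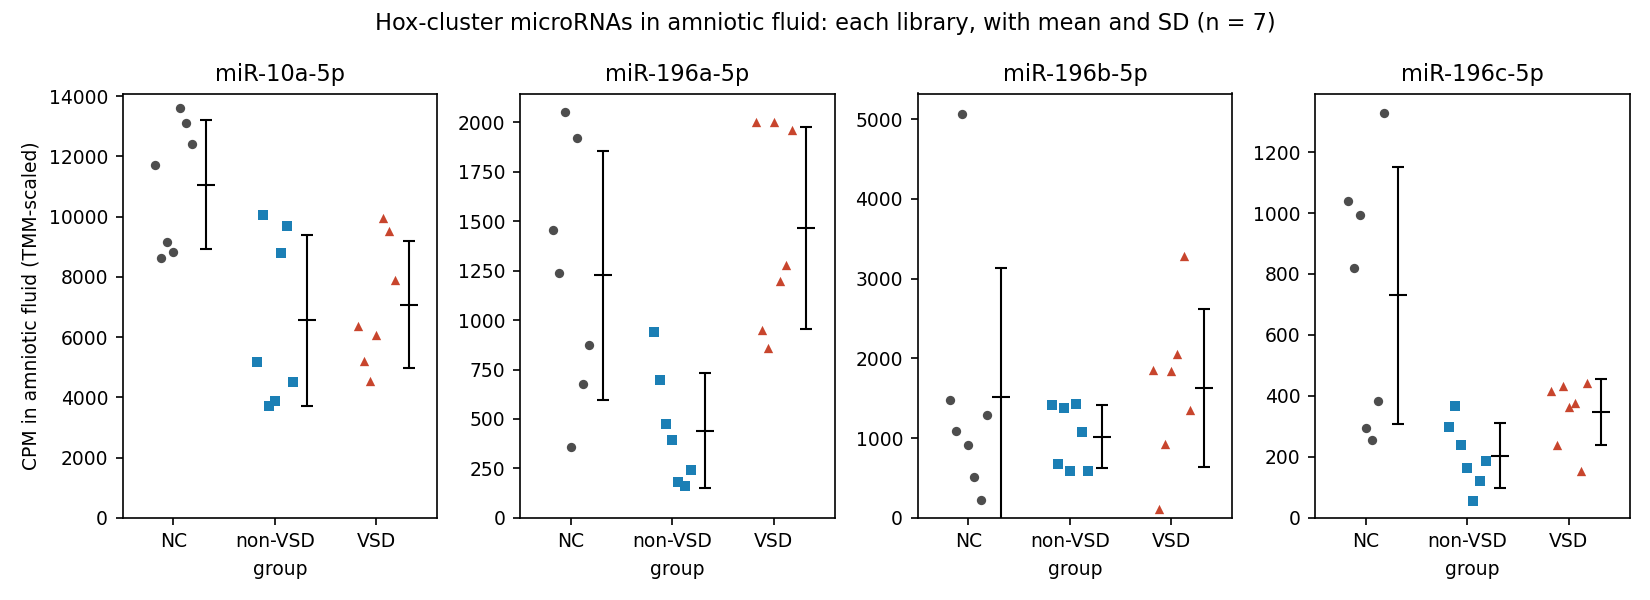
CPM of the 4 microRNAs counted throughout amniotic fluid (linear y axes from 0, one panel each) in each library by group, with the mean and SD (n = 7) beside the points. The non-VSD libraries of miR-196a-5p lie at or under 941 CPM and the VSD libraries at or over 857 CPM.

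The 3 miR-196 microRNAs, alike but for position 12, did not move as one. After each group's mean had been taken off, the Spearman correlation over the 21 amniotic fluid libraries was 0.53 between miR-196a-5p and miR-196c-5p, 0.32 between miR-196a-5p and miR-196b-5p and 0.22 between miR-196b-5p and miR-196c-5p. The closest microRNAs to miR-196c-5p were miR-182 (0.80), miR-183-5p (0.72) and miR-93-5p (0.71) among 259. Both miR-182 and miR-183-5p are products of 1 cluster known from sensory and other epithelia. Closest to miR-196a-5p were miR-30a-3p, let-7g-5p and let-7f-5p, at 0.64, 0.64 and 0.63, and closest to miR-196b-5p was miR-21-5p at 0.63. For miR-10a-5p the values were lower than in the myocardium, with miR-191a-5p (0.65), its relative miR-100-5p (0.64) and miR-494-3p (0.64) nearest.

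Of all miR-196 counts in amniotic fluid, miR-196b-5p took 42.7% (NC), 56.5% (non-VSD) and 46.6% (VSD). The share of miR-196c-5p was 18.7% (NC), 13.6% (non-VSD) and 10.5% (VSD). Single libraries varied more than these pooled shares, with miR-196b-5p between 17.0% and 62.4% of the NC libraries' miR-196 counts. Maternal serum was made up otherwise. There miR-196b-5p took 90.4% of the NC and 84.7% of the VSD counts, and 66.0% or more in every library.

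**Figure D5:**
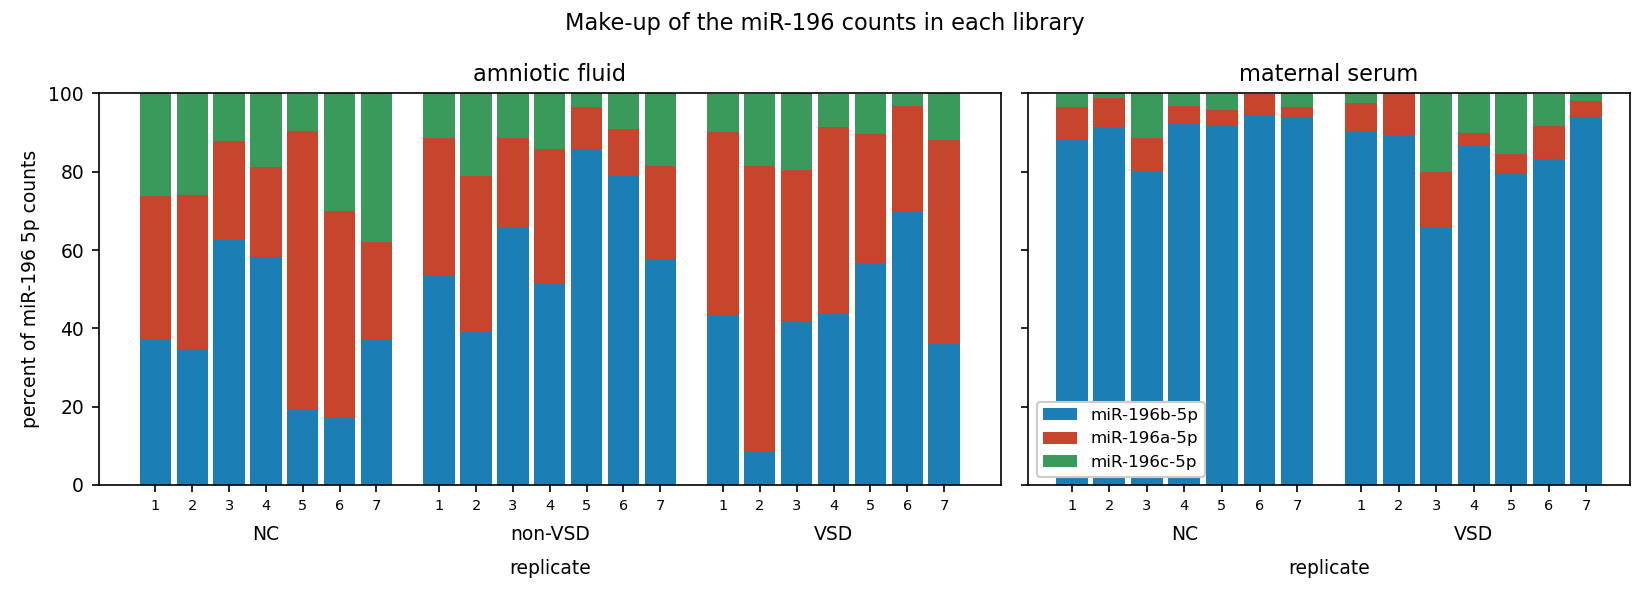
Percent of all miR-196 5p counts (y axis) that belonged to each of the 3 microRNAs, as 1 stacked bar per library (x axis: replicate within group), in amniotic fluid (left) and maternal serum (right). MiR-196b-5p makes up 66.0% or more of every serum bar and as little as 8.33% of an amniotic fluid bar.

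Other cell types' microRNAs moved with the groups in amniotic fluid. The 4 red blood cell microRNAs summed to 15041 to 34832 CPM in the NC group (median 22259), to 25426 to 86204 CPM in non-VSD (median 63552) and to 18134 to 143542 CPM in VSD libraries (median 40403). The 8 epithelial microRNAs had medians of 114289, 73944 and 114957 CPM in the same order, and 4 white blood cell microRNAs had medians of 2957, 7321 and 2812 CPM. Those of 4 kidney and gut microRNAs were 11730 CPM in the NC, 8250 CPM in the non-VSD and 8192 CPM in the VSD group, and those of the 5 heart muscle microRNAs were 166, 783 and 468 CPM. Within groups, the Spearman correlations of the 4 counted microRNAs with these lists lay between -0.29 and 0.38. The part of these lists in the differences of miR-10a-5p, miR-196a-5p and miR-196c-5p was not tested. VSD replicate 4 stood apart with 40732 CPM of miR-122, a liver microRNA, where no NC library was above 1630 CPM, and without it the log2 difference of miR-196a-5p between the DMO groups was 1.68.

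MiR-10b-5p was at 0 in 20 of 21 amniotic fluid libraries and had 12 counts in the other, VSD replicate 4 (59.9 CPM). A median of 1203 CPM in the NC myocardium and of 1048 CPM in the NC serum stands beside this 0. Of 57 microRNAs with a median of at least 500 CPM in both of those groups, it was the only one with 0 counts in NC amniotic fluid, a count made after its values had been seen. A median under 10 CPM in NC amniotic fluid was found for 2 of the 57, miR-10b-5p included. The other arm of the miR-10b hairpin was there. MiR-10b-3p had 177 counts in amniotic fluid, 65 of them in the NC, 74 in the non-VSD and 38 in the VSD group.

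The 5p arm of Mir10b outnumbered the 3p arm 769 to 1 in myocardium counts and 29.9 to 1 in serum counts, but in amniotic fluid the ratio was 0.0678. For Mir10a the same ratios were 431, 39.5 and 44.2, so that only Mir10b turned over. Its 5p arm as listed lacks the first 2 bases of the stretch printed above. The sources used here do not give the sequences against which amniotic fluid reads were counted, and the part of that choice in the 0 was not tested. No fold change or ratio was computed for miR-10b-5p in amniotic fluid.

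In maternal serum, which is the dam's own blood fraction, no change of the 5 microRNAs was detected. Serum had no non-VSD group, so DMO given to the dam and a defect in her fetuses cannot be told apart there. Of the 5, 3 passed the filter, 0 met the threshold of the study (4.57% of 219 microRNAs did) and 0 had an unadjusted p under 0.05 by edgeR. DESeq2 called 0 as well. MiR-10a-5p was at 704 to 1006 CPM in the NC group (median 735) and at 510 to 1323 CPM in the VSD group (median 850), which gave 0.10 on the log2 scale (SE 0.21 and adjusted p = 0.863). MiR-10b-5p was at 569 to 1439 CPM (median 1048) and at 525 to 1355 CPM (median 838), which gave -0.20 on the log2 scale (SE 0.26 and adjusted p = 0.793). MiR-196b-5p was at 143 to 338 CPM (median 199) and at 90.4 to 260 CPM (median 154), which gave -0.47 on the log2 scale (SE 0.29 and adjusted p = 0.522; -0.69 without VSD replicate 1). Without any 1 library the lowest unadjusted p of miR-196b-5p was 0.0302 and its lowest adjusted p 0.277, both by edgeR. All 3 pairs of ranges overlapped. MiR-196a-5p and miR-196c-5p had 68 and 50 counts over the 14 serum libraries and were not tested.

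The other microRNAs of the Hox clusters were few and low. Of the 3p arms, miR-10a-3p, miR-10b-3p and miR-196c-3p were listed in every sample type, and miR-615 in amniotic fluid. None of those tested met the threshold in any of the 7 comparisons or had an unadjusted p under 0.05. In the myocardium miR-10a-3p had a log2 fold change of 0.91 in the VSD group (SE 0.58 and adjusted p = 0.374), close to the 0.87 of its 5p arm. MiR-615 had 79 counts in the NC, 39 in the non-VSD and 98 in the VSD amniotic fluid.

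The relatives of miR-10 outside the Hox clusters, miR-99a-5p, miR-99b-5p and miR-100-5p, share most of its sequence and lack 1 base of the miR-10 seed. They were tested in all 7 comparisons, and none met the threshold. In myocardium they varied far less than miR-10a-5p. The highest NC library of miR-99a-5p was 1.58-fold above the lowest, against 20.3-fold for miR-10a-5p. An unadjusted p under 0.05 was reached by miR-99a-5p alone, in the non-VSD myocardium (log2 fold change 0.50, standard error 0.18, adjusted p = 0.145 by edgeR) and in the VSD serum. In serum miR-99a-5p was at a median of 335 CPM in the NC and 195 CPM in the VSD group, a log2 fold change of -0.69 (SE 0.24 and adjusted p = 0.176 by edgeR), with 7 of 7 VSD libraries below the NC median. Of all microRNAs tested, 17.5% and 13.7% had such a p in these 2 comparisons.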

How the data were processed

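Small RNA was sequenced from myocardium, amniotic fluid and maternal serum of 56 rat samples in 8 groups of 7. The authors deposited raw counts per mature microRNA, not normalized, beside 89 columns of normalized values, means and their own comparisons (fold changes, p-values), which were not used. Per the labels, bcl2fastq 2.19 and DESeq were used upstream. The aligner, microRNA annotation, genome build and any use of molecular identifiers are not given in the sources used here. Myocardium and serum libraries were made with TruSeq Small RNA, amniotic fluid libraries with QIAseq.

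Counts of each sample type were joined by microRNA name. The amniotic fluid tables listed 493 and 507 microRNAs, and the 46 listed in one table only were set to 0 in the other. Each contrast was fitted over all microRNAs with edgeR 4.0.16 (R 4.3.3; TMM scaling, filterByExpr with a minimum count of 10 and total of 15, quasi-likelihood test), with Benjamini-Hochberg adjustment. VSD was compared with non-VSD in a fit of all 3 groups. Exact permutation tests took all 3432 groupings, and tests between sample types took 100000 permutations. The ratio of miR-10b-5p to miR-10a-5p used a prior count of 0.5, and was not computed in amniotic fluid, where miR-10b-5p had almost no counts. Named microRNAs were the 5 members, other Hox-cluster microRNAs, miR-99a-5p, miR-99b-5p and miR-100-5p, and the 3 most like each member by Spearman correlation of log2 CPM with group means taken off (mean of at least 10 counts). DESeq2 1.42.0, limma 3.58.1, other scalings and filters, a replicate block and leaving out each library were tried. Total counts limit the precision, since a value rests on as few as 78188 counts in amniotic fluid, and intervals and floors cover counting error only. No 2 samples of a group agreed within sampling noise. Scripts were tested on simulated data. Figures were drawn with matplotlib 3.10.9. The members and lists were chosen with earlier results of these data known.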

Additional observations from a re-analysis of the deposited data

Results flagged for a closer look

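In 8 of 73 groups of 7 libraries examined, 1 library stood apart, its gap to the nearest other being over 0.568 of the whole range. Chance gives about 1 in 20 such groups for normally distributed values, which these CPM were not shown to be, and no explanation was tested. For miR-10b-5p and miR-196c-3p in VSD amniotic fluid the other 6 libraries were at 0, so that the gap is the whole range. In the myocardium they were miR-10b-5p in VSD replicate 3 (6470 CPM) and miR-196b-5p in NC replicate 3 (12.3 CPM). In amniotic fluid they were miR-10b-5p in VSD replicate 4 (59.9 CPM), miR-196b-5p in NC replicate 3 (5062 CPM), miR-10a-3p in non-VSD replicate 7 (483 CPM), miR-10b-3p in VSD replicate 1 (149.8 CPM), miR-196c-3p in VSD replicate 1 (94.3 CPM) and miR-99b-5p in non-VSD replicate 7 (18941 CPM).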

How the results depend on the processing

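Counts of the 5 microRNAs at the DE-microRNA threshold changed under these alternatives, and the cause was not tested. For VSD against NC myocardium 0 became 1 with no filter on low counts, and 0 to 1 without any 1 library (1 without NC replicate 2). For non-VSD against NC myocardium 0 became 1 with no filter. For VSD against non-VSD myocardium 2 became 0 by limma, 1 by exact permutation tests, 1 without NC replicate 2 and VSD replicates 1 and 4 (added after seeing the data), and 0 to 2 without any 1 library. For VSD against NC amniotic fluid 1 became 0 by DESeq2, by limma, by exact permutation tests and with at least 10 counts in every sample, 2 with no filter (miR-10b-5p, from 12 counts in 1 library), and 0 to 1 without any 1 library. For non-VSD against NC amniotic fluid 2 became 1 with at least 10 counts in every sample, where miR-196c-5p could not be tested. For VSD against non-VSD amniotic fluid 1 became 2 with no filter. The count in serum was 0 throughout.

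Replicate numbers were not shown to pair the samples. The deviations of same-numbered samples correlated between -0.64 and 0.52, with 0 to 5 of 7 pairs over 0.1. These values cannot settle whether the numbers pair samples, and the main fits used no pairing. With the replicate block the count became 1 for VSD against NC myocardium (miR-10a-5p), 0 for VSD against non-VSD myocardium and 0 for VSD against NC amniotic fluid, and the other 4 counts did not change.

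Some log2 fold changes turned in direction. That of miR-10a-5p in non-VSD against NC myocardium, -0.21, became 0.20 by limma, 0.20 by exact permutation, 0.15 with the replicate block and 0.20 without NC replicate 2. Without any 1 library it lay within -0.48 to 0.20. Without any 1 library, miR-10b-5p in VSD against NC myocardium ran from -0.16 to 0.68, miR-196b-5p in amniotic fluid from -0.15 to 0.85 (VSD against NC) and from -0.79 to 0.24 (non-VSD against NC), and miR-10a-5p in serum from -0.038 to 0.18. Without any 1 library, the difference in log2 ratio of miR-10b-5p to miR-10a-5p ran from -0.39 to 0.32 for VSD against non-VSD myocardium. It was 0.66 there without VSD replicates 1 and 4. It kept its direction for non-VSD against NC myocardium, from -1.18 to -0.71 (permutation p under 0.05 without NC replicate 2 or non-VSD replicate 5). The same held in serum, from -0.32 to -0.17 (permutation p under 0.05 without NC replicate 6).

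Adjusted p-values passed 0.05 in amniotic fluid for miR-196a-5p between the DMO groups with DESeq2 (0.00754) and with at least 10 counts in every sample (0.0246). For non-VSD against NC they did so for miR-196c-5p with DESeq2 (0.0139), library-size scaling (0.0462) and 3 groups in 1 fit (0.0292), and for miR-196a-5p with DESeq2 (0.0473) and 3 groups in 1 fit (0.0460). Without 1 library they did so for miR-196c-5p (NC replicate 4, 5 or 6 or non-VSD replicate 1 or 6; lowest 0.0396), for miR-196a-5p (non-VSD replicate 1, 0.0454) and, between the DMO groups, for miR-196a-5p (non-VSD replicate 1, 0.0235, or VSD replicate 2, 0.0447). Library-size scaling moved the median log2 fold change of all microRNAs in VSD against NC myocardium from -0.05 to 0.32. A count of 0 allows up to 9.04 CPM in the deepest amniotic fluid library and up to 38.4 CPM in the shallowest.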
